A study of Homo sapiens with 6 samples.

Results

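The zinc finger genes of chromosome 19q13.12 that surround ZNF850 were taken as 1 group, chosen by name and position, to see whether the lower ZNF850 signal after ZDHHC20 silencing was shared by its neighbours. The list holds 30 genes, all found among the 27394 genes of the table, and 29 of them averaged 1 or more in the 6 libraries and were tested among 22189 genes. They were measured by RNA-seq in the established pancreatic cancer line PANC-1, of human origin. The sample labels give RPMI-1640 as its medium and the study's methods DMEM, both with fetal bovine serum. The 2 groups were 3 shControl libraries, from the control group of the shRNA knockdown, and 3 shZDHHC20 libraries, in which ZDHHC20, a palmitoyltransferase that attaches a fatty acid to cysteines of proteins, was silenced by shRNA. The study made these libraries to look for genes downstream of ZDHHC20. No label says that the replicates came from separate cultures, so the p-values measure the spread between these samples, which may be technical.

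Genes of this kind encode proteins with a row of C2H2 zinc fingers, which read DNA sequence, and most of them carry a KRAB domain at the other end. The KRAB domain recruits TRIM28 (KAP1), a scaffold that brings the histone methyltransferase SETDB1 and other silencing enzymes, and many of these proteins bind and silence transposable elements. They arose largely by tandem duplication and lie in clusters on chromosome 19, where neighbouring genes resemble each other in sequence. ZNF146 and ZNF260 are made up almost wholly of fingers and lack a KRAB domain.

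On GRCh38, by GENCODE release 29, the cluster runs from chr19:36182060, the start of ZNF565, to chr19:37817300, the end of ZNF573, over 1.64 megabases. ZNF850 (ENSG00000267041) lies at chr19:36714383-36772825 on the minus strand, between ZNF567 and ZNF790. Its longest open reading frame was 1090 residues long and held 29 C2H2 fingers, the most of the 30 genes, whose counts went down to 3 fingers in ZNF781.

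The start region of ZNF850 is shown because these genes resemble each other there. RefSeq windows on GRCh38.p14, from 250 bases before to 50 bases after a start, were matched by symbol for 27 of the 30 genes and gave 48 windows. In the ZNF850 window, chr19:36772758-36773057 read on the minus strand, the capitals mark GACTACNNTTCCC, a word of 6 bases, 2 of any kind and 5 bases. Of all such words in this window it was the one found in the windows of the most genes of the cluster. It resembles the element bound by the transcription factor ZNF143:
ZNF850: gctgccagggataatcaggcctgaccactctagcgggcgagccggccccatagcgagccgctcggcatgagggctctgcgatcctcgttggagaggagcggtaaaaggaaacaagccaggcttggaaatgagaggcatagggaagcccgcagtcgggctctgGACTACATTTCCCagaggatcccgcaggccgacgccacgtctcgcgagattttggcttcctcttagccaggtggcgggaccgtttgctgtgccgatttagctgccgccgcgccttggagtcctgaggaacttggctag

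The element begins 88 bases before the start. Searched on both strands, it stood without a mismatch in at least 1 window of 14 of the 27 genes (51.9%), at 15 different sites. ZNF420 held 2 of them in its window, and a site between genes read away from each other can lie in the windows of both. It was found in 0.567% of all 27167 genes with a window, in 7.18% of the 195 zinc finger genes elsewhere on chromosome 19 and in 3.35% of the 239 on other chromosomes. With up to 1 mismatch it stood in 17 of the 27 genes (63.0%), against 2.61% of all genes. The word was chosen on these genes, so their share is a description.

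A second motif, CCGGAAGT, which ETS factors are known to bind, was found on either strand in 7 of the 27 genes (25.9%), in 4.91% of all genes and in 21.0% of the zinc finger genes elsewhere on chromosome 19. CACGTG, the E-box that MYC is known to bind, stood in 1 of the 27 genes (3.7%) and in 8.74% of all genes. Either motif could share at most 2 bases with an end of the element. These are shares of letters in windows and say nothing of binding.

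The element of ZNF850 is set beside those of its neighbours on either side, of ZNF461, which rose, and of the abundant ZNF146 and ZNF260, with 12 bases on each side and the element in capitals:
ZNF850: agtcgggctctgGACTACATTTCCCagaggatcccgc
ZNF567: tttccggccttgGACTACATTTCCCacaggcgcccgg
ZNF790: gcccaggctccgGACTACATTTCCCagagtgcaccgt
ZNF461: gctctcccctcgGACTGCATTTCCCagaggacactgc
ZNF146: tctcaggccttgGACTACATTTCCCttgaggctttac
ZNF260: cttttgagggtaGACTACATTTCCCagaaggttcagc

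Counted from 1 at the first base of the element, ZNF461 carried the substitution A5G, with the element's letter first. Its stretch, at chr19:36666849-36666885, also lay in a window of ZNF567, which is read the other way. The other 5 stretches held the element without a mismatch. ZNF585A and ZNF585B, the copies described below, had no match with up to 1 mismatch. They shared a run of 41 bases in their windows, at chr19:37172693-37172733 and chr19:37210516-37210556 on the minus strand, with CCGGAAGT in capitals:
ZNF585A: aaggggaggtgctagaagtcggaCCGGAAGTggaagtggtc
ZNF585B: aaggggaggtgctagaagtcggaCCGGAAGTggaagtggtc

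ZDHHC20 itself was lower in the shZDHHC20 libraries, at 848 ± 61.0 normalized counts against 1991 ± 46.9 (SD, n = 3 each), a log2 fold change of -1.23 (adjusted p = 4.36e-07, limma). Values rise in whole steps, as read counts divided by 1 factor per library do, without division by gene length, and they summed to between 17083277 and 18007664 in a library. Libraries of a group differed by an SD of 0.0674 to 0.0722 (log2, 4136 genes with a mean of at least 1000), except that shZDHHC20 replicate 2 differed from the other 2 of its group by 0.178 and 0.198. Among markers of the cell line's type, KRT8, KRT18 and KRT19 had no value under 5771, and KRT7 lay between 63.6 and 122. EPCAM and CDH1 rose, with log2 fold changes of 2.89 and 1.13 (adjusted p = 6.70e-07 and 6.62e-06, limma). VIM, listed as a mesenchymal marker, lay between 18869 and 23526. KRT8 and KRT18 lay lower in every shZDHHC20 library (log2 fold changes -0.13 and -0.16, adjusted p = 0.0631 and 0.0549, limma). PTPRC of leukocytes, CDH5 of endothelium, LUM of fibroblasts and PRSS1 of acinar cells did not exceed 8.66 in any library, and CD14 of leukocytes lay between 17.0 and 41.3. COL1A1, listed as a marker of fibroblasts, was high, between 3113 and 3958, and fell (log2 fold change -0.27, adjusted p = 0.00288, limma). The part of these shifts in the results below was not tested. In bulk RNA, fewer cells that express a gene and less RNA per cell cannot be told apart.

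ZNF850 was the 1 gene of the cluster called lower. Its normalized counts were 163, 237 and 201 in shControl replicates 1 to 3 and 144, 107 and 141 in shZDHHC20 replicates 1 to 3. Every shZDHHC20 library was below every shControl library, with the lowest value in shZDHHC20 replicate 2. Its log2 fold change was -0.61 (SE 0.159, 95% interval -0.96 to -0.27, adjusted p = 0.0244, limma over all genes tested), and its mean of 131 ± 20.4 was 65.2% of the control mean of 200.3 ± 37.2 (SD, n = 3 each). Without shZDHHC20 replicate 2 the log2 fold change was -0.48 (adjusted p = 0.0331). The call was lost without shControl replicate 2 (-0.48, adjusted p = 0.143), without shControl replicate 3 (-0.60, 0.102) or without shZDHHC20 replicate 1 (-0.69, 0.0530).

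The genes of ZNF850 and ZNF567 overlap on opposite strands, but 0 of the 7850 exon bases of ZNF850 were exonic on the other strand. Of the 50-base words in its transcripts, 3.53% also occurred in transcripts of another gene, at most 0.871% in any 1 gene.

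**Figure D1:**
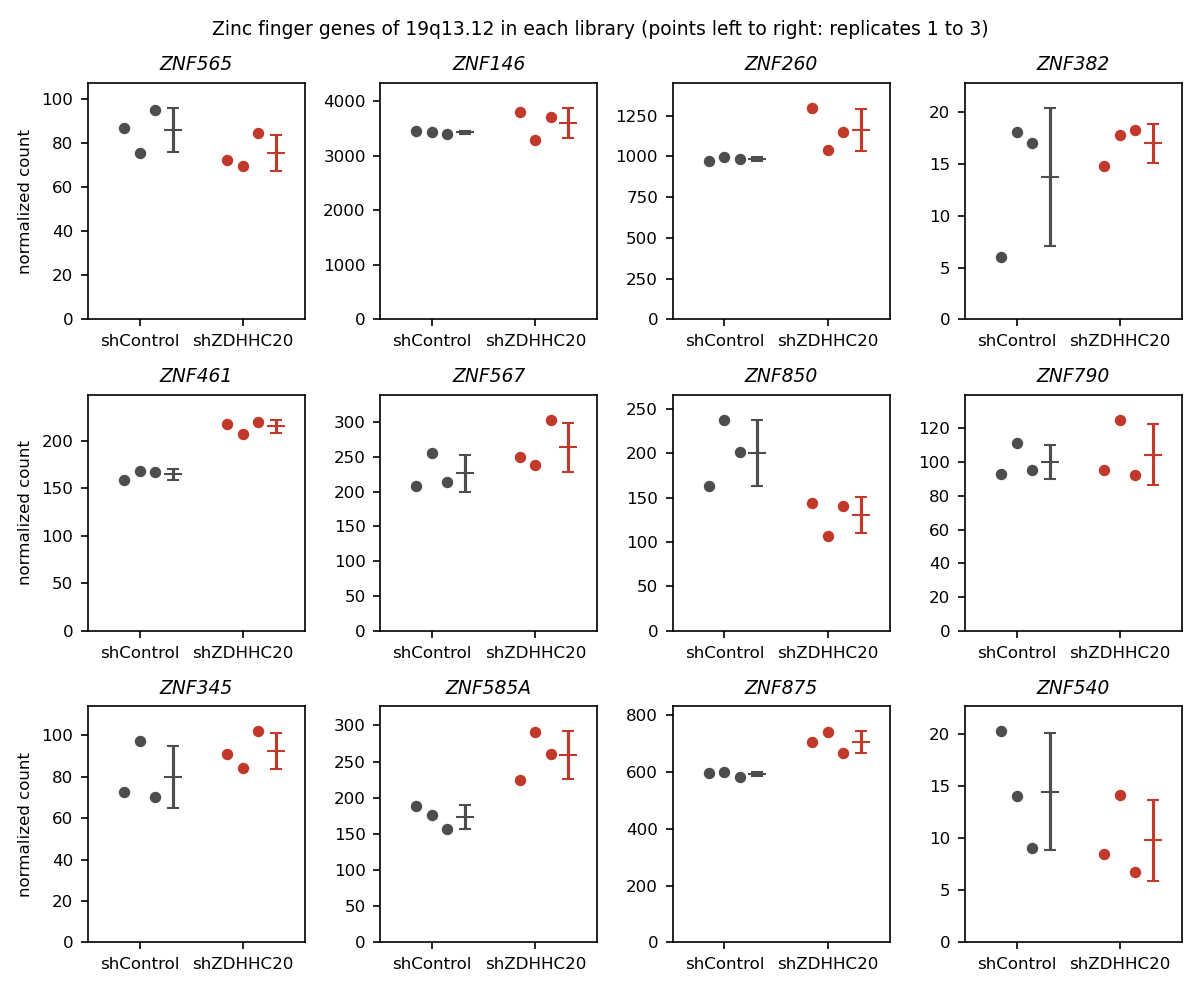
Normalized counts of 12 genes of the cluster in each library, shControl in grey and shZDHHC20 in red, with points for replicates 1 to 3 from left to right and the mean ± SD (n = 3) beside them. ZNF850 lies between 163 and 237 in shControl and between 107 and 144 in shZDHHC20, while ZNF461, ZNF585A, ZNF875 and ZNF260 lie higher in every shZDHHC20 library.

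None of the tested genes next to ZNF850 was called lower. ZNF567, which precedes it, had 208, 256 and 214 normalized counts in shControl and 249, 239 and 303 in shZDHHC20, with overlapping groups and a log2 fold change of 0.22 (SE 0.121, adjusted p = 0.303). ZNF790, which follows it, had 93.0, 111 and 95.1 against 95.4, 125 and 92.4, a log2 fold change of 0.05 (SE 0.162, adjusted p = 0.889). The groups overlapped for both. ZNF345, one gene further on, had 72.8, 97.4 and 70.1 against 91.2, 84.5 and 102 and again overlapping groups (log2 fold change 0.22, SE 0.174, adjusted p = 0.490). AC020928.1, a lincRNA that starts on the other strand beyond the ZNF850 start, had 21.2, 17.1 and 18.0 against 17.0, 26.3 and 18.3 (log2 fold change 0.11, adjusted p = 0.893). AC020928.2, a lincRNA on the strand of ZNF850 and before its start, was barely detected, with 3.03, 3.01 and 6.01 against 3.18, 2.82 and 1.92 (log2 fold change -0.54, adjusted p = 0.741).

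ZNF461, on the other side of ZNF567, rose. It had 159, 169 and 167 normalized counts in shControl and 218, 208 and 220 in shZDHHC20. The groups were well apart, and the log2 fold change was 0.39 (SE 0.105, adjusted p = 0.0305). The call was lost without any 1 library other than shZDHHC20 replicate 2 (0.36 to 0.40, adjusted p = 0.0820 to 0.124). Its exons shared 0 bases with exons on the other strand.

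ZNF585A had the highest log2 fold change of the cluster. It had 189, 176 and 156 normalized counts in shControl and 225, 291 and 260 in shZDHHC20, all of the latter above all of the former, with a log2 fold change of 0.57 (SE 0.123, adjusted p = 0.00881). Without shControl replicate 3 it was 0.50 (adjusted p = 0.0590). It is a close copy of its neighbour ZNF585B: both encode 21 fingers in 769 residues, and 11.05% of the 50-base words of ZNF585A occurred in ZNF585B and 15.5% of those of ZNF585B in ZNF585A. Reads from such stretches could be split between them, so both values are uncertain. With all other genes counted, 17.3% and 24.9% of their words were shared. ZNF585B had 577, 532 and 531 against 633, 597 and 691, also without overlap, with a log2 fold change of 0.23 that did not pass the test (adjusted p = 0.0862).

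ZNF875, also known as HKR1, was called higher as well. Its values were 595, 599 and 584 in shControl and 707, 743 and 667 in shZDHHC20, a log2 fold change of 0.25 (SE 0.0704, adjusted p = 0.0353). The shControl libraries lay close together and every shZDHHC20 library was above them. The call was lost without any 1 shControl library or without shZDHHC20 replicate 1 (0.24 to 0.26, adjusted p = 0.108 to 0.140).

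Thus 4 of the 29 tested genes passed an adjusted p of 0.05 (13.8%), against 11.5% of all genes tested. Of these, 3 were higher, where 4.61% of all genes were higher, and 1 was lower, where 6.84% of all genes were lower. The groups did not overlap for 7 of the 29 genes (24.1%), against 28.6% of all genes. They were ZNF850 below and ZNF260, ZNF461, ZNF585A, ZNF585B, ZNF875 and ZNF527 above the controls. The fall of ZNF850 was known when the list was made. Without ZNF850, 3 of 28 genes passed (10.7%), all of them higher, and the groups did not overlap for 6 (21.4%). The share of called genes among the 29 was near that of the whole table, which includes non-coding and low genes. Of the 11500 protein-coding genes within the cluster's range of mean normalized counts, 18.1% passed and 38.8% had groups that did not overlap. Both shares of the cluster were below these, and the difference was not tested. The 2 sets were not matched for level. The 11500 genes had a median mean of 508 normalized counts, against 191 for the tested genes of the cluster. Without shZDHHC20 replicate 2, 9 genes passed, 8 of them higher and 1, ZNF850, lower, and 4454 genes of the table passed. Without shControl replicate 3 none of the 29 passed in limma, where 5 of them had an unadjusted p under 0.05, and 2, 1 and 1 passed without shControl replicate 1, shControl replicate 2 or shZDHHC20 replicate 1.

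The KRAB-less genes ZNF146 and ZNF260 were the most abundant per length, at 848 and 180 normalized counts per kilobase of exon, followed by ZNF875 at 90.1, ZNF569 at 84.7 and ZNF585B at 78.7. ZNF146 had 3462, 3434 and 3394 normalized counts in shControl and 3799, 3298 and 3714 in shZDHHC20, with shZDHHC20 replicate 2 below all controls (log2 fold change 0.07, SE 0.0570, adjusted p = 0.517). ZNF260 had 973, 996 and 984 against 1295, 1040 and 1152, with no overlap (0.23, SE 0.0764, adjusted p = 0.0693). ZNF850, at 21.1 per kilobase, was among the lower genes, near ZNF573 at 21.4 and ZNF565 at 20.4.

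At the other end, ZNF382 and ZNF540 were close to the lowest levels that the table resolves, and their fold changes had wide intervals. ZNF382 had 6.06, 18.1 and 17.0 normalized counts in shControl and 14.8, 17.8 and 18.3 in shZDHHC20, with the low value in shControl replicate 1 alone (log2 fold change 0.45, SE 0.458, adjusted p = 0.604). ZNF540 had 20.2, 14.1 and 9.01 against 8.48, 14.1 and 6.74, with overlapping groups and a log2 fold change of -0.55 (SE 0.479, 95% interval -1.58 to 0.48, adjusted p = 0.538). ZNF565, the first gene of the cluster, had the third lowest log2 fold change. It had 86.9, 75.3 and 95.1 against 72.1, 69.5 and 84.7, again with overlap (-0.18, SE 0.168, adjusted p = 0.560). ZNF781 was at 0 in 5 libraries and at 1.92 in shZDHHC20 replicate 3, and was not tested.

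The other 16 tested genes lay between a log2 fold change of -0.10 for ZNF568 and 0.34 for ZNF527, and none passed the test. Over all 29 tested genes, 22 log2 fold changes were above 0 and 7 below, with a median of 0.15 against 0.01 for all genes tested. Of the 29 log2 fold changes, 10 turned sign in at least 1 of the 16 alternatives, 6 of those above 0 and 4 of those below. Before ZNF850 in order of position, from ZNF566 to ZNF567, the log2 fold changes were 0.09 to 0.45, and after it, from ZNF790 to ZNF829, they were 0.05 to 0.22. These stretches end where the sign turns. The next gene out was ZFP82 at -0.03 on one side, and ZNF568 at -0.10 and then ZNF420 at -0.04 on the other.

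**Figure D2:**
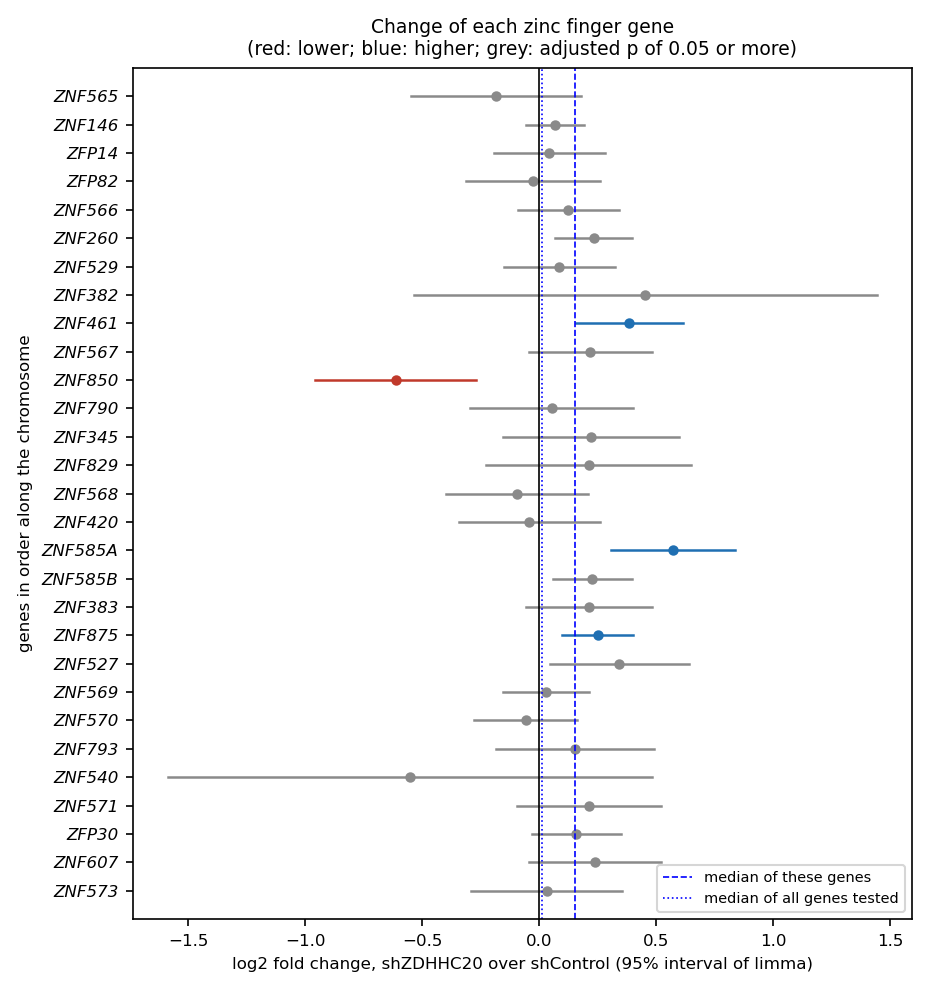
Log2 fold change of shZDHHC20 over shControl for the 29 tested genes in their order along the chromosome, as points with 95% intervals from limma (n = 3 libraries per group). ZNF850, in red at -0.61, is the 1 gene called lower, the 3 in blue are called higher, and the dashed line at 0.15 and the dotted line at 0.01 are the medians of these genes and of all genes tested.

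To set ZNF850 beside each of the rest, its log2 ratio to each other tested gene was taken within each library, which removes any scaling error of a library. All 28 ratios were lower in shZDHHC20, by 0.06 for ZNF540 to 1.18 for ZNF585A, with a median difference of -0.77. For 24 of the 28 genes every shZDHHC20 ratio was below every shControl ratio, as it was for 47.5% of the 22188 other genes tested. Such a ratio gives an exact two-sided permutation p of 0.1, the smallest that 3 libraries against 3 allow (0.117 after Benjamini-Hochberg adjustment over the 28). The 4 whose ratios overlapped were ZNF565, ZFP14, ZNF568 and ZNF540. The 28 comparisons share the values of ZNF850, whose fall was known when the genes around it were chosen, so a gene that stayed level also gives a lower ratio. They describe how far ZNF850 lay from each gene and are no independent evidence of its fall.

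The ratio to ZNF567 was -0.36, -0.11 and -0.09 on the log2 scale in shControl and -0.79, -1.16 and -1.11 in shZDHHC20. The ratio to ZNF790 was 0.81, 1.09 and 1.08 against 0.60, -0.22 and 0.60. ZNF850 was thus lower relative to either neighbour in every shZDHHC20 library. Fitted with limma over the ratios of all genes to ZNF850, a fit added after the data were seen, 18 of the 28 ratios passed an adjusted p of 0.05, where 32.3% of the 22188 ratios to all other genes did. The difference was -0.83 for ZNF567 (95% interval -1.35 to -0.31, adjusted p = 0.0138) and -0.67 for ZNF790 (-1.26 to -0.07, adjusted p = 0.0727). For 3 genes the unadjusted interval held 0: ZNF565 (-1.05 to 0.20), ZNF568 (-1.08 to 0.05) and ZNF540 (-1.16 to 1.04).

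**Figure D3:**
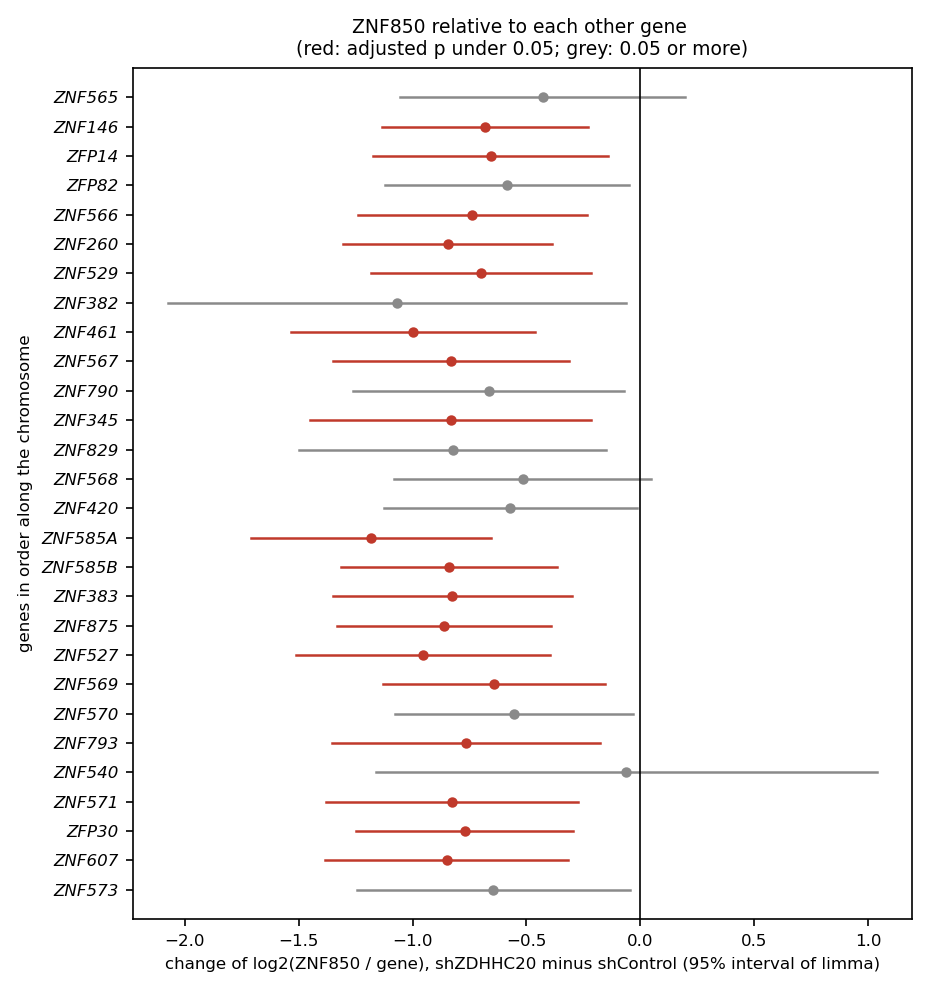
Change of the within-library log2 ratio of ZNF850 to each of the 28 other tested genes, shZDHHC20 minus shControl, with 95% intervals from limma (n = 3 libraries per group). All 28 points lie below 0, from -0.06 for ZNF540 to -1.18 for ZNF585A, and the 18 in red passed an adjusted p of 0.05.

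Summed over the other 29 genes, the cluster gave 9920, 10091 and 9877 normalized counts in shControl and 11380, 10299 and 11194 in shZDHHC20. Every shZDHHC20 sum was above every shControl sum, with ZNF146 the largest part of each. ZNF850 made up 1.61% to 2.30% of the sum of all 30 in shControl and 1.03% to 1.25% in shZDHHC20.

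The zinc finger genes outside the cluster are given by their counts and medians. Of 208 tested zinc finger genes elsewhere on chromosome 19, 143 had a log2 fold change above 0, with a median of 0.15, and 27 passed the test, 24 higher and 3 lower. Of 277 on other chromosomes, 168 were above 0, with a median of 0.08, and 33 passed, 26 higher and 7 lower. A log2 fold change at or below that of ZNF850 was found for 2 of the 208 (0.962%), 6 of the 277 (2.17%), 932 of 14645 protein-coding genes (6.36%) and 10.9% of all genes tested. Among the 11500 protein-coding genes within the cluster's range of mean normalized counts, it was found for 308 (2.68%). Their median mean was 508, against a mean of 165 for ZNF850. Of the 14645 protein-coding genes, 16.5% passed and the median was -0.01. Differences between these lists were not tested.

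Transcripts of the cluster were poor in G and C, with a median of 39.4% against 49.1% for protein-coding genes. The 7739 other protein-coding genes within the range of GC of the cluster had a median log2 fold change of 0.03. Their median GC was 43.3%, above that of the cluster, so they were not matched for GC. With a GC correction, added after the data were seen, the median of the cluster was 0.11, and the same 4 genes passed, ZNF850 at -0.64 (adjusted p = 0.00678).

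**Figure D4:**
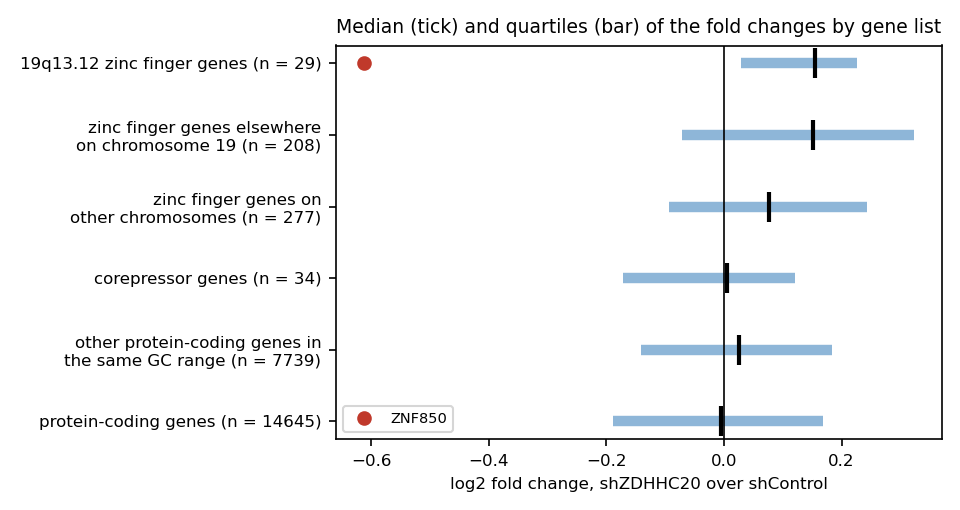
Median (tick) and quartiles (bar) of the log2 fold changes of shZDHHC20 over shControl for the tested genes of 6 lists, with ZNF850 as a red point. The medians of the cluster and of zinc finger genes elsewhere on chromosome 19 are both 0.15, that of zinc finger genes on other chromosomes is 0.08 and that of all protein-coding genes -0.01, and ZNF850 lies at -0.61.

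Between the zinc finger genes lie 27 non-coding genes of the table, of which 19 were tested. None passed in limma, 1 had an unadjusted p under 0.05 (ZNF529-AS1, log2 fold change 0.49, adjusted p = 0.206), and 11 were above 0. The directional kit keeps strand, but whether strand was used in counting was not given in the sources used here, so reads of ZNF529 and ZNF529-AS1 or of ZNF790 and ZNF790-AS1 may not be told apart where their exons overlap.

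Genes of silencing machinery, among them the corepressors through which KRAB zinc finger proteins act, were listed separately as corepressor genes. The list includes ZNF274, which is also counted among the zinc finger genes elsewhere on chromosome 19. Of 34 tested, 9 passed (26.5%), 7 lower and 2 higher, against 11.5% of all genes and 16.5% of protein-coding genes. The median log2 fold change of the 34 was 0.01. They were more abundant, with a median mean of 1257 normalized counts, against 88.9 for all genes and 420 for protein-coding genes. TRIM28, the KRAB corepressor, had 12295, 11676 and 11971 normalized counts in shControl and 11046, 10023 and 10581 in shZDHHC20, lower in every library (log2 fold change -0.18, SE 0.0466, adjusted p = 0.0212). SETDB1, its partner histone methyltransferase, had 703, 711 and 745 against 755, 733 and 760 (0.06, SE 0.0654, adjusted p = 0.651).

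EHMT2, the G9a histone methyltransferase, fell most of the 34, by 0.51 on the log2 scale. TRIM33 fell by 0.37, UHRF1, which helps to maintain DNA methylation, by 0.29, MTA2 of the NuRD complex by 0.24, CBX5, the HP1-alpha protein, by 0.21 and KDM1A, a histone demethylase, by 0.20. HDAC1, a histone deacetylase, and TASOR, the scaffold of the HUSH silencing complex, each rose by 0.21. The adjusted p of these 8 genes lay between 0.000189 and 0.0428. These levels and those of the zinc finger genes come from the same 6 libraries, and no link between them was tested.

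The changes were set beside the element shown above. Among the 14 genes with an exact match, which include ZNF850, ZNF567 and ZNF790, 8 log2 fold changes were above 0, with a median of 0.06 and a range of -0.61 to 0.23. The 3 with 1 mismatch, ZNF461, ZNF569 and ZNF573, were all above 0, with a median of 0.03. Among the 10 with neither, which include ZNF585A, ZNF585B and ZNF875, 9 were above 0, with a median of 0.23. Stretches with more than 1 mismatch were not counted, so these 10 may hold more distant copies. The word was taken from the ZNF850 window, so ZNF850 carried it by construction, and the range of the exact matches includes ZNF850 for that reason. ZNF850 was the 1 gene called among the 14, and 1 of the 3 and 2 of the 10 were called. Whether the word bears on the changes was not tested. These are descriptions, with no test.

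RNU7-40P, CARHSP1-DT, VWDE, AC092903.2 and SHLD2 followed ZNF850 most closely within the groups, over 6 libraries with each group centred on its mean. All had r of 0.9977 or more. VWDE and SHLD2 had log2 fold changes of 0.30 and 0.47, opposite in sign to ZNF850, and the other 3 had means under 2 normalized counts. Within the cluster, ZNF461 was nearest, with r = 0.961, at rank 133 among all genes tested. With 6 centred values many genes reach such an r, and it is given as a description.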

How the data were processed

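RNA-seq libraries of PANC-1 cells, 3 shControl and 3 shZDHHC20, were made by the submitters from total RNA with a directional kit. The table the authors deposited holds a signal for each gene in each library, named FPKM. Values are whole multiples of the smallest value of the library (tolerance 0.01) with no division by length, and are called normalized counts here. The submitters' processing notes name hg19, and the aligner, counter and annotation are not given in the sources used here. Table columns named siZDHHC20 and NC were matched to shZDHHC20 and shControl by group and number.

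Genes with a mean of at least 1 were fitted on log2(value + 0.1) with limma 3.58.1 (lmFit, eBayes with a mean-variance trend) in R 4.3.3, and two-sided p-values were adjusted by Benjamini-Hochberg over all 22189 genes tested. Fold changes on this scale understate changes of low genes. Symbols of 22002 genes came from a gene names table and of 5392 from GENCODE 29, which gave positions, exons and transcripts on GRCh38. Promoter windows of 300 bases came from RefSeq on GRCh38.p14. Open reading frames, C2H2 fingers (by their spacing of cysteines and histidines) and 50-base words were found in GENCODE transcripts with Python 3.11.15. Figures were drawn with matplotlib 3.10.9. In simulated data 194 of 200 genes changed 2-fold were recovered, and 4 of 22074 unchanged genes were called. The called genes of the cluster all changed by less than 2-fold, and recovery of such smaller changes was not simulated.

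Values per library are given for ZNF850, its 2 nearest tested genes on either side, genes past the threshold, the 3 highest and 3 lowest fold changes and the 2 most abundant genes per kilobase, and counts for the rest. The members and lists were chosen with earlier results of these data known. With 3 libraries per group the precision is limited.

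CD3E, PECAM1, CPA1, CELA3A, INS, GCG, DCN and HBB were listed as markers and are not analysed here. Alternatives were other pseudocounts, filters, scalings and variance moderation, a replicate block, leaving out each library and, added later, a GC correction and a fit of ratios.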

Additional observations from a re-analysis of the deposited data

How the results depend on the processing

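ZNF850 stayed below 0 under all 16 alternatives, at -0.75 to -0.48, and passed the threshold in 12. It did not pass without the mean-variance trend (-0.61, adjusted p = 0.198), where 0 of the 29 genes and 351 genes of the table passed in limma and 5 of the 29 had an unadjusted p under 0.05. Leaving out 1 library gave -0.75 to -0.48 for ZNF850, 0 to 9 genes of the cluster called, 1233 to 4454 genes of the table called and a median of the cluster of 0.090 to 0.16. Leaving out shControl replicate 1 turned ZNF382 to -0.052 (range over left-out libraries -0.052 to 0.73), and leaving out shZDHHC20 replicate 2 turned ZNF790 to -0.084 (-0.084 to 0.13). Of the 29 genes, 10 turned sign in 1 to 3 of the 16 alternatives: besides these, ZFP14, ZFP82, ZNF420, ZNF529, ZNF568, ZNF569, ZNF570 and ZNF573, and 20 to 23 genes were above 0 in each. ZNF540 was the lowest gene of the cluster, below ZNF850, after quantile normalization, without shControl replicate 2 or 3 and without shZDHHC20 replicate 2. ZNF461 passed in 9 of the 16 alternatives, ZNF875 in 10, ZNF585A in 14 and ZNF260 in 2, each with the sign of the main result throughout. The causes were not tested. The direction of ZDHHC20 and its call held under all 16 alternatives, and the count of ratios without overlap was 24 to 27 of 28 in the alternatives run for it.

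Same-numbered libraries did not deviate together (r = -0.02, -0.01 and 0.00 over all genes tested), so the numbers were not taken as pairs. With a replicate block, 2 genes of the cluster passed, ZNF585A and ZNF850 (-0.61, adjusted p = 0.0403), and ZNF461 and ZNF875 did not (0.0696 and 0.0702). Planned count tests were not run. The values are scaled, and whole reads were not taken as recovered for shControl. Its steps of 1.001 to 1.010 lie near 1 and were treated as possible rounding.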
